A study of Mus with 4 samples.

Results

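Polyamine synthesis and catabolism genes were examined in PPS-ICBR cells kept overnight with the histone deacetylase inhibitor vorinostat, against the same cells kept with its solvent DMSO. PPS-ICBR is labelled as a mouse prostate cancer cell line of C57Bl6 background. Cells plated at 60% confluency received vorinostat in DMSO at 5 µM, or only the solvent (5 µL of DMSO per 10 mL medium), and RNA of each of the 2 vorinostat and 2 DMSO samples was hybridised to 1 Affymetrix expression array. Whether replicate arrays stem from separate cultures is not stated, so the p-values below speak only of the spread among these 4 samples, part or all of which may be technical. The genes considered were Odc1, Srm, Sms, Amd1, Sat1, Sat2, Smox, Oaz1, Oaz2 and Azin1, and every probe set to which the platform annotation gives 1 of these symbols and no other was used. That rule found 15 of 45037 probe sets, for 8 of the 10 genes. No probe set carries the symbol Amd1 alone, and 3 probe sets carry Sms together with its pseudogene Sms-ps, so Amd1 and Sms were not analysed here. A further probe set shared by Oaz1 and its pseudogene was not used either. The 10 genes were listed by their known roles, but they were chosen by someone who already knew log2 changes of this same comparison, among them those of Srm and Odc1. Their changes and calls are therefore a description of the pathway and no independent evidence about it.

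Polyamines are small, positively charged molecules that bind nucleic acids and are needed for cell growth. Ornithine decarboxylase makes putrescine, and spermidine synthase and spermine synthase lengthen it with aminopropyl groups taken from decarboxylated S-adenosylmethionine. Acetylation and oxidation run the pathway backwards, and antizymes, whose own translation requires a frameshift that polyamines promote, carry ornithine decarboxylase to the proteasome. Prostate epithelium is known for its high polyamine production.

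The genes of the pathway did not move as 1 block. The spermidine synthase gene Srm was 5.97-fold lower with vorinostat, whereas the spermine oxidase gene Smox (4.03-fold), the antizyme gene Oaz2 (3.59-fold) and the acetyltransferase gene Sat1 (3.29-fold) were higher. Odc1, the gene of ornithine decarboxylase, was modestly higher (1.46-fold at its brightest probe set) and Oaz1 slightly so (1.25-fold). Sat2 and Azin1 did not pass the threshold. Each gene is represented here by 1 probe set, the one of highest average value on the 4 arrays (called brightest below), and a gene passed if limma's adjusted p over all 45037 probe sets was under 0.05. By this rule 5 of the 8 genes were higher, where 20.9% of all 18193 genes were higher, and 1 was lower, where 18.9% of all genes were lower. In either direction that makes 6 of 8, beside 39.9% of all genes. The median log2 change was 0.43 over the 8 genes and 0.03 over all genes, and the median size of the change, whatever its sign, was 1.13 and 0.24. Of the 15 probe sets, 9 passed, against 32.2% of all probe sets, and in 14 the arrays of the groups did not overlap, as in 62.8% of all probe sets. Over genes the groups did not overlap in 7 of 8, beside 68.9% of all genes. Since the genes were chosen with results of this comparison known, nothing is read from these counts.

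**Figure D1:**
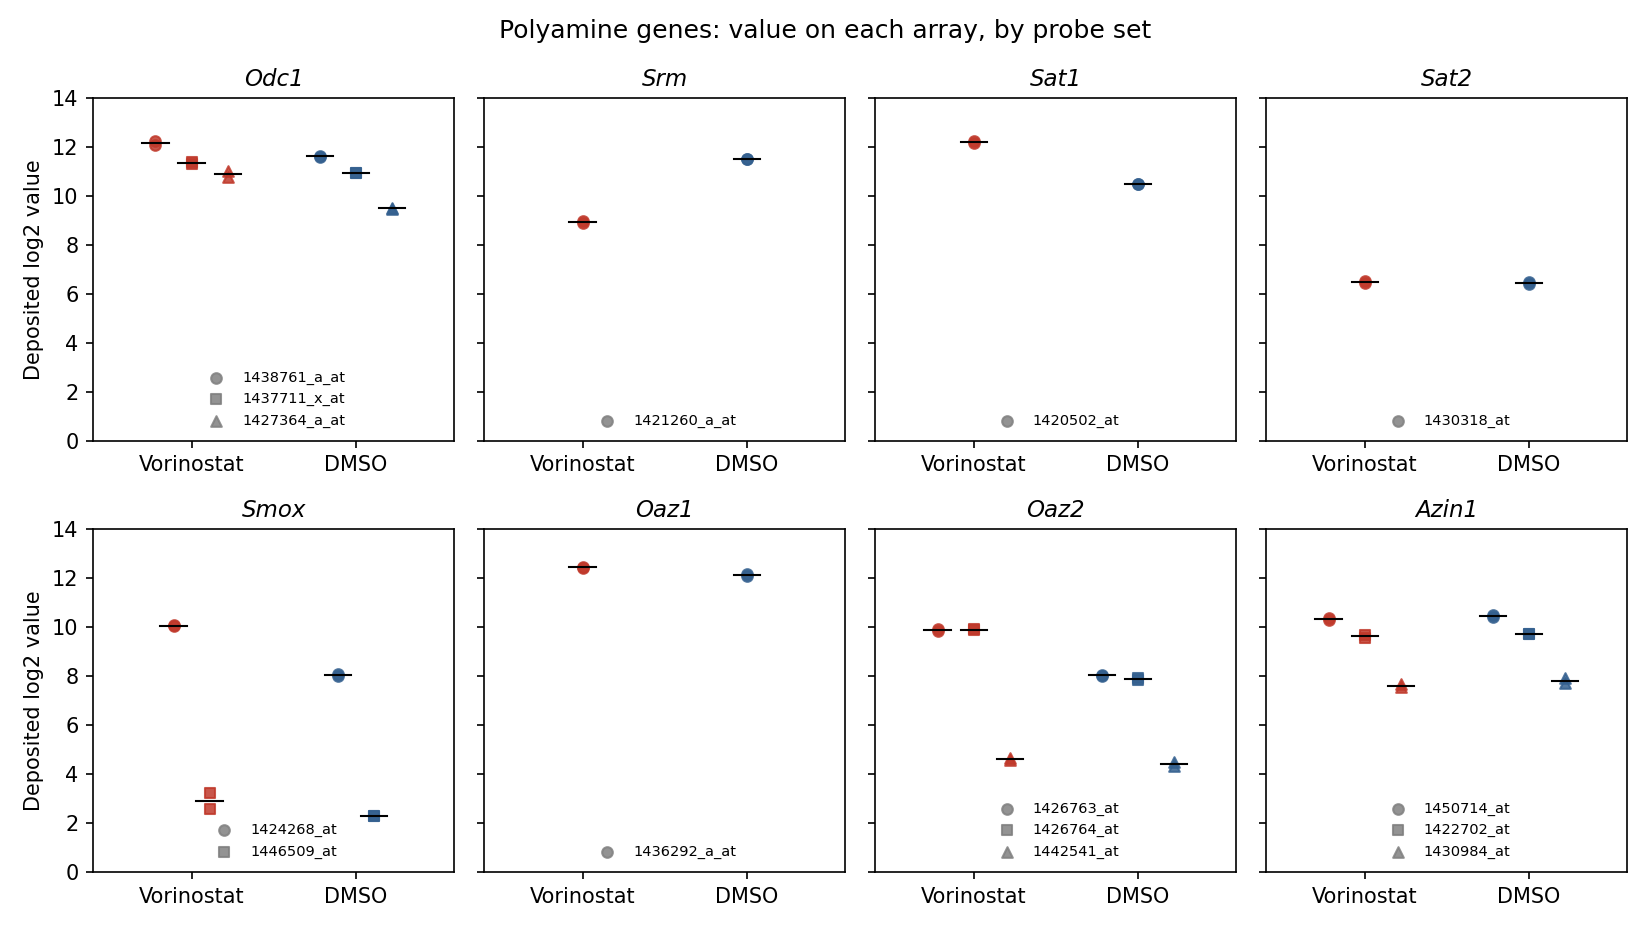
Deposited log2 value (vertical axis) of each polyamine probe set on each array, with vorinostat (red) left of DMSO (blue) in each panel, 1 panel per gene, a marker shape per probe set and a horizontal line at the mean of the 2 arrays. Srm sits near 9 with vorinostat and above 11 with DMSO, while Sat1, Smox and Oaz2 sit higher with vorinostat at their brightest probe sets.

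All values are the authors' log2 values, and every change is the mean of the vorinostat arrays minus that of the DMSO arrays on this log2 scale, with its standard error (SE). The array-wide picture was that of replicates lying close together: only 9 probe sets were over 2-fold apart between the 2 vorinostat arrays and 16 between the 2 DMSO arrays, against 3734 to 4378 for arrays of different groups. The ribosomal RNA control probe sets averaged 12.35 to 12.47 on the vorinostat arrays, and 11.81 on DMSO 1 and 12.34 on DMSO 2, and their part in the results was not tested. Of the epithelial and prostate markers, Krt8, Krt18, Epcam, Cdh1 and Hoxb13 were above background, while the prostate secretory gene Pbsn was near background on every array. Background is taken from a bacterial control transcript, and near background means within 1 log2 unit of its brightest probe set on each array of a group. Of 4 leukocyte markers, Ptprc and Adgre1 were near background and Cd3e and Lyz2 were not, with Cd3e higher with vorinostat (4.96 and 4.91, against 4.44 and 4.57 with DMSO, limma adjusted p = 0.0158). Of 4 endothelial markers, Pecam1 and Tek were near background and Cdh5 and Kdr, at 4.01 to 4.59 over all arrays, were not. Of 5 fibroblast markers only Lum was near background. The summed linear values of the 8 measured epithelial markers were 5783 and 6502 with vorinostat and 8645 and 8942 with DMSO, and those of the 5 fibroblast markers 6894 and 7656 with vorinostat and 7275 and 7303 with DMSO. These sums hide opposite moves: Krt8 was lower (-1.05) and Hoxb13 higher (0.54) among the epithelial markers, and among the fibroblast markers Pdgfra (1.54) and Dcn (1.26) were higher while Col1a1 (-0.31) and Col1a2 (-0.21), which makes up most of the sum, did not pass. The part of these markers in the results below was not tested, and fewer cells of a type and less RNA per cell cannot be told apart in such bulk samples.

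Among the synthesis enzymes, Srm has 1 probe set (1421260_a_at). Its values were 8.87 and 8.99 with vorinostat, against 11.51 and 11.51 with DMSO. The groups lay 2.52 apart at their nearest arrays, far beyond the 0.12 by which the vorinostat arrays differed from each other. The mean was 8.93 ± 0.08 with vorinostat and 11.51 ± 0.0045 with DMSO (SD, n = 2 each), a change of -2.58 (SE 0.08, limma adjusted p = 0.00016). Ordered from the largest fall, Srm ranked 63 of 18193 genes.

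Odc1, which encodes the enzyme that opens the pathway, has 3 probe sets, and all of them were higher with vorinostat. Probe set 1438761_a_at, the brightest, read 12.24 and 12.08 with vorinostat, against 11.60 and 11.62 with DMSO, a change of 0.55 (SE 0.09, limma adjusted p = 0.00766). Probe set 1437711_x_at read 11.38 and 11.29 with vorinostat, against 10.92 and 10.92 with DMSO, a change of 0.41 (SE 0.08, limma adjusted p = 0.0146). The groups did not overlap at either of them, and the suffix _x_at marks a probe set some of whose probes may match other transcripts. Probe set 1427364_a_at read 11.02 and 10.79 with vorinostat, against 9.48 and 9.51 with DMSO, a change of 1.41 (SE 0.10, limma adjusted p = 0.000589), or 2.65-fold. On each of the 3, Vorinostat 1 was above Vorinostat 2. The calls of the first and second probe set were lost in most or all fits with 1 array left out. Their changes stayed at 0.47 to 0.63 and 0.36 to 0.45. Such fits passed fewer of all probe sets, so a lost call does not show dependence on 1 array. A fit with 1 array left out takes the spread from the group that keeps 2 arrays and assumes that the lone array of the other group varies as much, so its p-values are a rough guide. Without DMSO 1, DMSO 2 or Vorinostat 1 the brightest probe set no longer passed (changes of 0.54, 0.56 and 0.47, adjusted p from 0.0606 to 0.0732), without Vorinostat 2 it did (0.63, adjusted p = 0.0334), and the _x_at probe set did not pass with any 1 of the 4 arrays left out (adjusted p from 0.0598 to 0.0959). The third, 1427364_a_at, passed with any 1 array left out, with changes of 1.29 to 1.52 and adjusted p up to 0.0263.

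The size of the Odc1 change thus depended on the probe set. To test this, the difference between a gene's brightest probe set and each of its other probe sets was taken on every array, and the 16752 such differences of all genes were compared between vorinostat and DMSO in 1 limma fit. The change of Odc1 at 1438761_a_at was smaller than at 1427364_a_at by 0.86 on the log2 scale (difference -0.86, SE 0.10, limma adjusted p = 0.0052), and this held with each array left out (-0.89 to -0.82, adjusted p up to 0.0318). The difference between 1438761_a_at and 1437711_x_at was 0.14 (SE 0.10, limma adjusted p = 0.382). Of all 16752 differences 19.8% passed, and of the 7 within the polyamine genes 3 did, 1 each in Odc1, Smox and Oaz2.

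Odc1 and Srm are both textbook targets of the transcription factor Myc, and they moved in opposite directions here. Myc itself read 9.13 ± 0.14 with vorinostat and 9.23 ± 0.14 with DMSO (SD, n = 2 each). Its change of -0.10 (95% interval -0.39 to 0.19) did not pass (limma adjusted p = 0.576). Only Myc RNA was measured here, and the part of Myc in these changes was not tested.

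**Figure D2:**
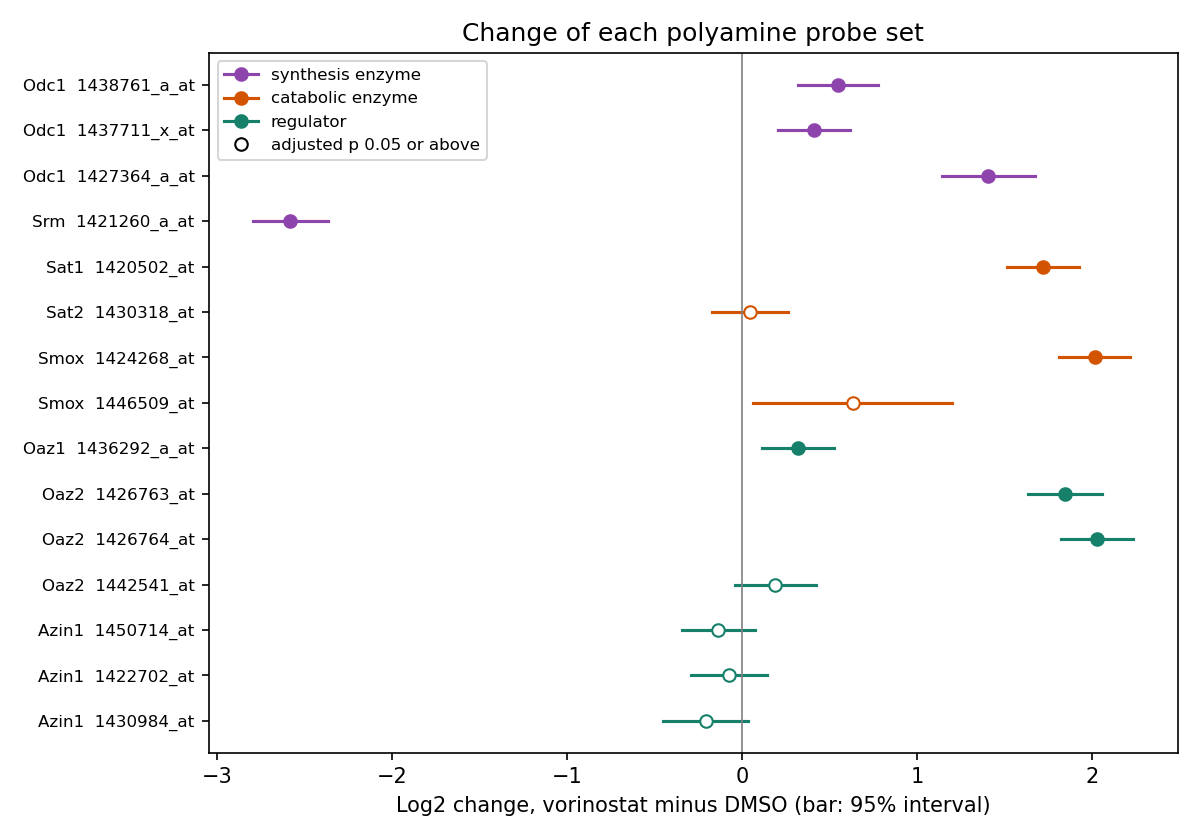
Log2 change (vorinostat minus DMSO, horizontal axis) of the 15 polyamine probe sets, with the 95% interval from limma as a bar, coloured by role, and open circles where the adjusted p was 0.05 or above. Srm at -2.58 is the 1 filled circle left of 0, and the 3 Odc1 probe sets lie at 0.55, 0.41 and 1.41.

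Of the catabolic enzymes, Sat1 and Smox were higher with vorinostat and Sat2 did not pass. Sat1 encodes the spermidine and spermine acetyltransferase, the rate-limiting step of polyamine breakdown and export. Its probe set (1420502_at) read 12.24 and 12.15 with vorinostat, against 10.48 and 10.48 with DMSO. Both vorinostat arrays lay at least 1.67 above both DMSO arrays. The mean was 12.20 ± 0.06 with vorinostat and 10.48 ± 0.0018 with DMSO (SD, n = 2 each), a change of 1.72 (SE 0.08, limma adjusted p = 0.000235).

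Smox encodes spermine oxidase, which turns spermine straight back into spermidine and releases hydrogen peroxide. Probe set 1424268_at read 10.03 and 10.07 with vorinostat, against 8.07 and 8.01 with DMSO. The groups were 1.96 apart at their nearest arrays, and the change was 2.01 (SE 0.08, limma adjusted p = 0.000183), the largest rise among the brightest probe sets of the 8 genes and rank 194 of 18193 genes ordered from the largest rise. The second Smox probe set, 1446509_at, read 2.55 and 3.24 with vorinostat, against 2.27 and 2.27 with DMSO, and lay near background in both groups. It did not pass (limma adjusted p = 0.0931), and the difference of 1.38 between the changes of the Smox probe sets (SE 0.22, limma adjusted p = 0.0118) therefore includes a probe set near background. Without Vorinostat 1 that probe set was at 0.97 (limma adjusted p = 0.019) and without Vorinostat 2 at 0.29 (limma adjusted p = 0.139).

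Sat2 carries the name of a second acetyltransferase, although its protein acts mainly on thialysine and hardly on polyamines. Its probe set (1430318_at) read 6.54 and 6.43 with vorinostat, against 6.40 and 6.48 with DMSO, so that the groups overlapped, the only such case among the 15 probe sets. The change was 0.04 (95% interval -0.17 to 0.26, limma adjusted p = 0.762).

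The regulators act on ornithine decarboxylase protein rather than on polyamines themselves. Oaz1 and Oaz2 encode antizymes, which bind the enzyme, send it to the proteasome and curb polyamine uptake, and Azin1 encodes an inactive relative of the enzyme that captures antizyme. Oaz2 rose at both of its brighter probe sets. Probe set 1426763_at read 9.93 and 9.84 with vorinostat, against 8.06 and 8.02 with DMSO, a change of 1.84 (SE 0.08, limma adjusted p = 0.000222). Probe set 1426764_at read 9.91 and 9.89 with vorinostat, against 7.82 and 7.92 with DMSO, a change of 2.03 (SE 0.08, limma adjusted p = 0.000183). These changes differed by -0.18 (SE 0.11, limma adjusted p = 0.295). The third Oaz2 probe set, 1442541_at, read 4.64 and 4.55 with vorinostat, against 4.34 and 4.48 with DMSO. Its change of 0.19 (95% interval -0.04 to 0.42) did not pass (limma adjusted p = 0.191) and was 1.66 smaller than that of 1426763_at (SE 0.11, limma adjusted p = 0.00192).

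Oaz1 has 1 probe set of its own (1436292_a_at), which read 12.47 and 12.41 with vorinostat, against 12.09 and 12.16 with DMSO. The arrays did not overlap, and the change of 0.32 (SE 0.08) passed narrowly (limma adjusted p = 0.0353). It no longer passed when any 1 of the 4 arrays was left out (0.28 to 0.35, adjusted p from 0.0928 to 0.165) or when arrays were centred on their medians (0.26, adjusted p = 0.0769).

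Azin1 had 3 probe sets, none of which passed. Probe set 1450714_at read 10.37 and 10.30 with vorinostat, against 10.51 and 10.43 with DMSO, with a change of -0.14 (95% interval -0.35 to 0.08, limma adjusted p = 0.292). The changes at 1422702_at and 1430984_at were -0.08 (95% interval -0.29 to 0.14) and -0.21 (95% interval -0.45 to 0.04), with limma adjusted p of 0.563 and 0.172. The 3 probe sets did not differ in their change past the threshold (limma adjusted p of 0.741 and 0.732), and the intervals leave room for a fall of up to 0.45 on the log2 scale but for a rise of no more than 0.14. With arrays scaled on reference genes all 3 changes turned positive (0.16 to 0.29), and 1422702_at passed as higher (limma adjusted p = 0.0344).

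Within the DMSO group the polyamine probe sets differed less than all probe sets, and within the vorinostat group about as much. This comparison was not matched for level: array medians were 4.2 to 4.3, and most polyamine probe sets were brighter. The vorinostat arrays differed by a median of 0.09 and the DMSO arrays by 0.04 over the 15 probe sets, against 0.10 and 0.11 over all probe sets. Vorinostat 1 was above Vorinostat 2 in 12 of the 15, including all probe sets of Odc1, Oaz2 and Azin1, where 50.1% of all probe sets had that order. Probe sets of 1 gene read the same gene on the same arrays, so these are not 15 separate observations.

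The smaller changes depended on the scaling, and the larger ones kept their calls. Of 9 genes chosen as references, 7 had a probe set of their own, and their mean change was -0.37, mostly from Gusb (-1.42) and Polr2a (-0.75). Scaling each array on their mean adds a constant to all changes, so that the median over all genes was 0.40 under this scaling and 0.03 as deposited. Under it Srm was at -2.21, Sat1 at 2.09, Smox at 2.38 and Oaz2 at 2.21, Odc1 at 0.92 and Oaz1 at 0.68, and Sat2 passed as higher (0.41, limma adjusted p = 0.0131). So did the second Smox probe set, 1446509_at (1.00, limma adjusted p = 0.00984), and the third of Oaz2, 1442541_at (0.56, limma adjusted p = 0.00613). Scaling on the 5 references other than Gusb and Polr2a, chosen after the data were seen, shifted the changes by 0.08 and changed no call among the 8 genes. The differences between members do not depend on such a shift.

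**Figure D3:**
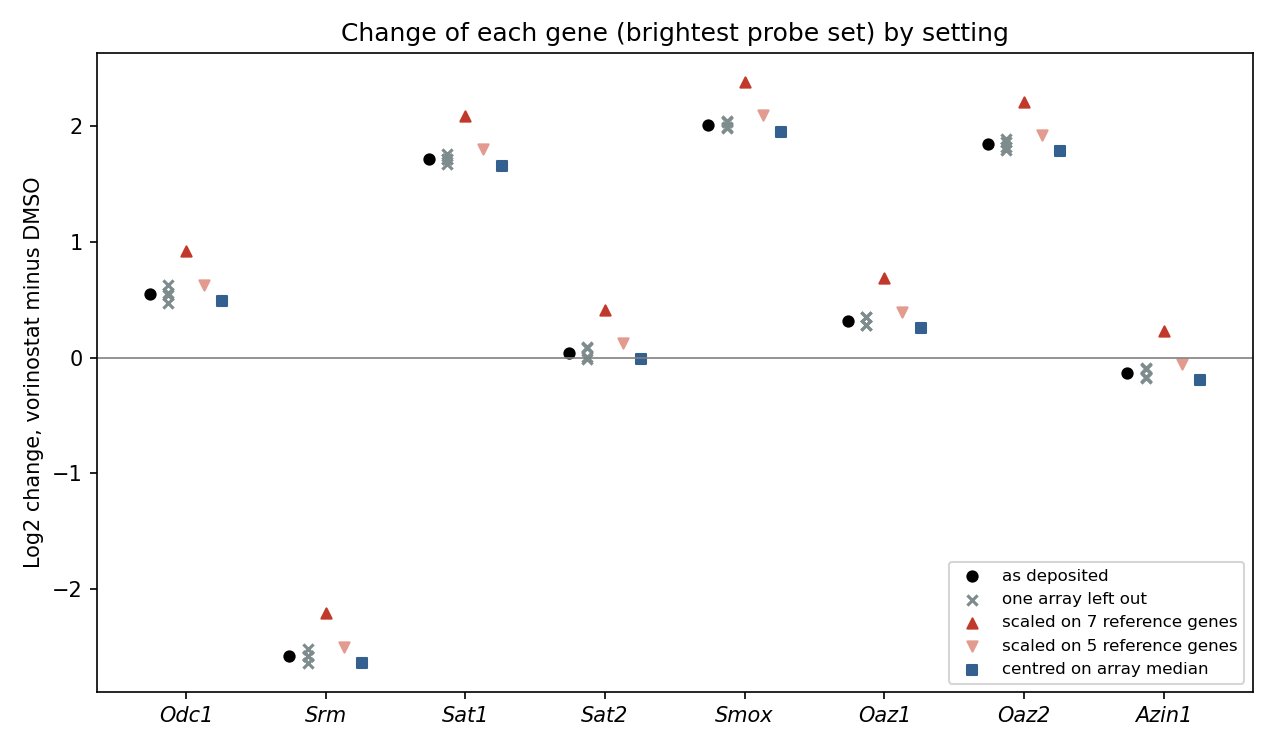
Log2 change (vorinostat minus DMSO, vertical axis) of each polyamine gene at its brightest probe set, as deposited (black circles), with 1 array left out (crosses), scaled on 7 or 5 reference genes (triangles) and centred on the array median (squares). Srm stays between -2.64 and -2.21 and Smox between 1.95 and 2.38 in these settings, while Sat2 and Azin1 fall on both sides of 0.

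Genes that supply, salvage, move or use polyamines were looked at next, from a list of 29 of which 24 had a probe set of their own. Of these 24, 6 were higher and 9 lower, again beside 20.9% and 18.9% of all genes, and 9 did not pass. Their median change was 0.02, against 0.03 over all genes, and the median size of the change 0.39, against 0.24. The polyamine oxidase gene Paox, which acts after Sat1, had no probe set of its own and was not analysed here.

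The same shares of all genes, 20.9% higher and 18.9% lower, stand beside the counts of each branch below. Around arginine and ornithine, 1 of 4 genes was higher and 1 lower. Arg2, the mitochondrial arginase that makes ornithine, read 7.16 and 6.81 with vorinostat, against 2.87 and 2.51 with DMSO. Because the DMSO arrays lay near background, only a lower bound can be given, of at least 10.2-fold higher (change 4.30, SE 0.17, limma adjusted p = 0.000183). A second Arg2 probe set, 1438841_s_at, also near background in DMSO, read 5.32 and 5.12 with vorinostat, against 1.99 and 2.04 with DMSO. Oat, the aminotransferase that interconverts ornithine and a proline precursor, read 7.85 and 7.96 with vorinostat, against 9.70 and 9.63 with DMSO (change -1.76, SE 0.08, limma adjusted p = 0.000245). Arg1 and Agmat did not pass.

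Of 3 further regulators and relatives, Azin2, a second antizyme inhibitor, rose and Oaz3 and Satl1 did not pass at their brightest probe sets. Another Oaz3 probe set, 1432571_at, near background in both groups, passed as lower (-0.40, limma adjusted p = 0.0168), and the rest did not pass. Azin2 read 6.82 and 6.82 with vorinostat, against 5.84 and 5.82 with DMSO (change 0.99, SE 0.08, limma adjusted p = 0.000644), and another probe set, 1439649_at, rose by 1.67. The third, 1442093_at, lay near background with DMSO and passed as higher by at least 1.17-fold. Thus Azin2 was higher while the change of Azin1 did not pass, and the difference between them was not tested.

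In the salvage of methylthioadenosine, the by-product of spermidine and spermine synthesis, the first enzyme rose and 3 later ones fell. Mtap, the phosphorylase that cleaves methylthioadenosine, read 11.38 and 11.43 with vorinostat, against 10.65 and 10.53 with DMSO (change 0.81, SE 0.09, limma adjusted p = 0.00172), and its other 3 probe sets rose by 0.65 to 1.17. Mri1, the isomerase of a later step, fell by 1.15 on the log2 scale (SE 0.08, limma adjusted p = 0.000483). A second Mri1 probe set, 1426549_at, near background in both groups, did not pass (-0.29, limma adjusted p = 0.0775). Enoph1, the enolase-phosphatase, fell by 1.10 (SE 0.09, limma adjusted p = 0.000771). The dioxygenase Adi1 fell by 0.40 (SE 0.10, limma adjusted p = 0.0318), a call that 2 other Adi1 probe sets did not share (0.06 and -0.15). Mat2b, a regulatory subunit of the enzyme that makes S-adenosylmethionine, rose by 0.29 (SE 0.08, limma adjusted p = 0.0382), and the dehydratase Apip did not pass (0.38, limma adjusted p = 0.0547), and was at 0.52 without Vorinostat 2 (limma adjusted p = 0.0466) and at 0.25 without Vorinostat 1 (limma adjusted p = 0.189).

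Spermidine is also the substrate for hypusine, a modified lysine of the translation factor eIF5A, and 3 of the 4 genes of that branch fell, beside 18.9% of all genes. Dhps, the deoxyhypusine synthase that uses spermidine, read 7.87 and 7.82 with vorinostat, against 8.57 and 8.54 with DMSO (change -0.71, SE 0.08, limma adjusted p = 0.00191). Eif5a fell by 0.36 (SE 0.08, limma adjusted p = 0.0247) and Eif5a2 by 0.50 (SE 0.11, limma adjusted p = 0.0228), and a second probe set of each fell by 0.75 and 0.54. At the brightest probe set the Eif5a call was lost with any 1 array left out and that of Eif5a2 without DMSO 1, DMSO 2 or Vorinostat 2, and scaled on the reference genes they were at 0.0072 and -0.13, both short of the threshold. Dohh, the hydroxylase that completes hypusine, had a change of 0.04 (95% interval -0.15 to 0.23).

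Of 7 transport genes, 2 were higher and 2 lower. Slc7a1, the main carrier of arginine into cells, read 8.55 and 8.70 with vorinostat, against 9.57 and 9.60 with DMSO (change -0.96, SE 0.09, limma adjusted p = 0.00112). It also fell at 1454992_at (-1.05), while 1421533_at, near background in both groups, did not pass (0.05). Slc3a2, a carrier heavy chain also linked to diamine export, fell by 0.70 (SE 0.08, limma adjusted p = 0.00197). Atp13a2, a lysosomal polyamine pump, rose by 0.45 (SE 0.08, limma adjusted p = 0.0092) and by 1.35 and 0.48 at its other probe sets. The carrier Slc7a2 rose by 0.28 at its brightest probe set (SE 0.08, limma adjusted p = 0.0456). Its probe set 1422648_at rose by 0.76 (limma adjusted p = 0.00713). The other Slc7a2 probe sets, near background in both groups, did not pass. The related pump Atp13a3 did not pass at its brightest probe set (0.26, limma adjusted p = 0.0681) but rose at 1442145_at (0.78) and 1443868_at (0.65). The calls of Mat2b, Adi1, Slc7a2 and Atp13a2 were each lost when any 1 array was left out, whereas Arg2, Oat, Azin2, Mtap, Mri1, Enoph1, Dhps, Slc3a2 and Slc7a1 passed with each array left out. Scaled on the reference genes, 14 of the 24 genes were higher, beside 62.3% of all genes.

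**Figure D4:**
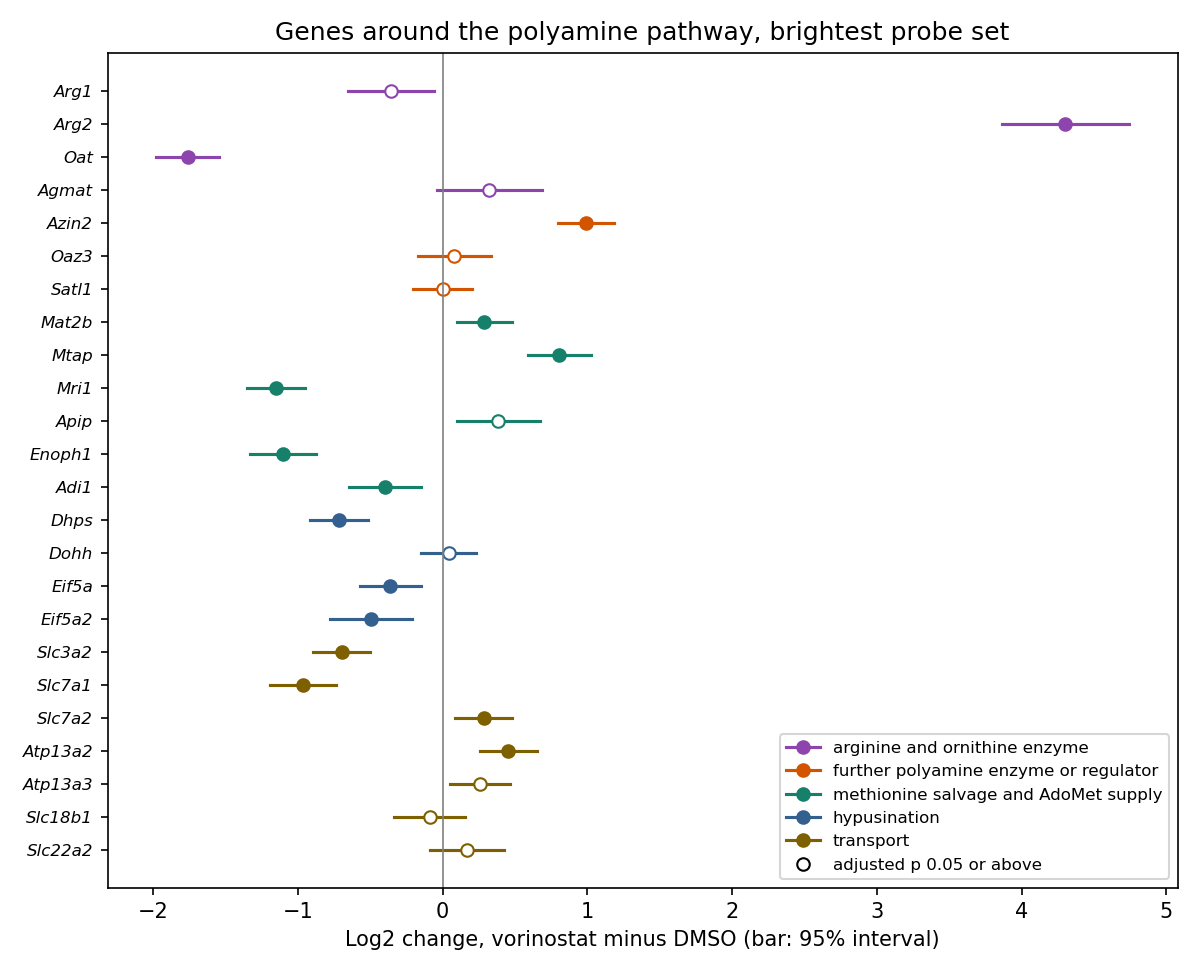
Log2 change (vorinostat minus DMSO, horizontal axis) of the 24 other genes around the polyamine pathway at their brightest probe set, with 95% intervals from limma, coloured by role and open where the adjusted p was 0.05 or above. Arg2 at 4.30 lies farthest right, with its DMSO arrays near background, and Oat at -1.76 farthest left.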

How the data were processed

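The values are the authors' deposited log2 values, 1 per probe set and array, for 2 vorinostat and 2 DMSO samples grouped by their titles. Per the submitters' processing notes, RMA and Transcriptome Analysis Console were used, with no versions. RMA equalises the intensity distributions of arrays, so a shift of the whole transcriptome would not show. A genome build was not given in the sources used here. Of 45101 probe sets, 64 controls were left out. Platform annotation gave 1 symbol to 34945, several to 932 and none here to 9160. The comparison was fitted with limma 3.58.1 under R 4.3.3 (lmFit and eBayes, two-sided, Benjamini-Hochberg over 45037 probe sets, adjusted p threshold 0.05), with no filter and no further normalization. Intervals are 95% limma intervals with 5.26 degrees of freedom. The fit was tested on simulated data, with no result given here, so that test lends no weight to the values above. The genes, lists and tests were chosen with earlier results of these data known. Named are all probe sets of the polyamine genes, each pathway gene that passed, some genes fixed by name (Paox, Eif5a, Dhps, Dohh, Slc3a2, Mtap and Myc), and Arg1, Agmat, Oaz3, Satl1, Apip, Slc18b1 and Atp13a3, added after their values were seen. Alternatives were a replicate block, each array left out, a variance trend, reference-gene scaling, median centring, a filter on dim probe sets and other ways to choose a gene's probe set. The number of arrays limits the precision.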

Additional observations from a re-analysis of the deposited data

How the results depend on the processing

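Srm, Sat1, Smox and Oaz2 kept their direction in all 12 alternatives run for each. Their ranges were, in that order, -2.64 to -2.21, 1.66 to 2.09, 1.32 to 2.38 and 1.35 to 2.21. The same genes and Odc1 kept their call in each alternative with all 4 arrays. Oaz1 lost its call under the replicate block and median centring. Odc1 and Oaz1 stayed positive throughout, and their calls with 1 array left out are given above. Setting suffixed probe sets aside reused the same probe set for each of these genes. Srm, Sat1 and Oaz1 have 1 probe set, so averaging probe sets could not alter their change either. Leaving out 1 array left 3 to 4 polyamine genes and 5 to 6 polyamine probe sets higher, with Srm lower each time, 3 to 4 of the other pathway genes higher, and 3778 to 4284 of all probe sets higher and 3900 to 4575 lower, against 7440 and 7051 with all 4 arrays. Some of the other pathway genes also passed as lower in each fit with 1 array left out. In such a fit 1 group holds only 1 array. Nothing is therefore read from its counts of polyamine and other pathway genes. Scaling on the reference genes gave 14 of the other pathway genes higher, beside 62.3% of all genes. It left 27486 probe sets higher and 3930 lower, against 7440 and 7051 as deposited. It turned Azin1 to 0.23, 0.29 and 0.16 at its probe sets, Arg1 to 0.013, Eif5a to 0.0072 and Slc18b1 to 0.28, and without Gusb and Polr2a Azin1 was at 0.0033 at 1422702_at. Median centring turned Sat2 to -0.017, Satl1 to -0.060 and Dohh to -0.018. Oaz3 was at -0.055 as the mean of its probe sets and at -0.051 with suffixed probe sets set aside, where Adi1 was at 0.064. With 1 array left out, Sat2 ranged from -0.0086 to 0.095, Satl1 from -0.040 to 0.041 and the difference between Azin1 probe sets 1450714_at and 1430984_at from -0.052 to 0.20. The cause of these turns was not tested. The groups share replicate numbers, but the labels do not say whether equal numbers mark a pair. With 2 arrays per group, the deviations of same-numbered arrays give only 1 correlation (-0.06), which cannot settle this. With the replicate number as a block, 4 polyamine genes were higher and 1 lower, 4 other pathway genes higher and 6 lower, beside 17.1% and 15.9% of all genes, and Oaz1 (adjusted p = 0.0804) was the 1 polyamine gene whose call was lost. The 3 called differences between probe sets of a gene passed in all 6 alternatives run for them.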
